A study of Macaca mulatta with 12 samples.

Results

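MX1, MX2, IFIT2, IFIT3, IFIT5, ISG20 and RSAD2 are 7 interferon-stimulated genes whose products act on viruses inside the infected cell. They were taken by name from a count table of 32386 genes, in which all 7 were found, and all 7 were among the 11826 genes with enough counts to be tested. The table holds RNA-seq counts from 12 libraries of rhesus macaque (Macaca mulatta) blood cells sorted as CD14+CD16-CD163+ and called macrophages in the labels. All groups come from a model of clonal hematopoiesis in which mobilized CD34+ progenitors went through CRISPR/Cas9 and were returned to the animal they came from, and the series title names TET2-mutant hematopoiesis.

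The early groups were sorted 4.5 months and the late groups 19 months after transplantation. At each time 250000 cells per well were kept for 8 h without stimulus (unstimulated) or with lipopolysaccharide (LPS) at 100 ng/ml and interferon-gamma at 20 ng/ml (stimulated). Of these agents the labels name only LPS in their treatment field and both in the protocol. The 4 groups have 3 libraries each. No label gives the TET2 genotype of the sorted cells or the share of edited cells among them, or says whether replicates are separate animals or wells, so the p-values reflect the spread between libraries, and this spread may be technical. Each time was sorted on its own, and time cannot be told apart from anything else that differed between the sorts. The design asks how the genes differ between the times and whether they respond alike to stimulation at both.

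Type I interferons act through the receptor IFNAR and factors that include STAT2 and IRF9, which switch on genes that hold an interferon-stimulated response element. Interferon-gamma acts through its own receptor, and LPS can induce IFNB1, the gene of interferon beta, through IRF3, so that macrophages given both agents receive signals from several routes. The products described here are effectors at the end of these routes. MX1 and MX2 are dynamin-like GTPases that trap incoming viral particles, IFIT2, IFIT3 and IFIT5 are repeat proteins that bind viral RNA or hold such complexes together, ISG20 is an exonuclease that degrades RNA, and RSAD2 (viperin) makes a nucleotide that ends RNA chains.

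Library totals ran from 3910680 to 12972505 counts, and the 7 genes had 77 to 4345 counts per library. Early stimulated library 1 stood apart: its counts differed from those of the other libraries of its group by a chi-square per degree of freedom of 28.4 and 29.3, against 2.82 between those. Late unstimulated library 3 also stood apart, less far, at 10.5 and 10.8 from the others of its group, against 3.35 between those. Late libraries held a count in 17470 to 20760 genes and early libraries in 13883 to 16132. Levels are given in CPM, each count scaled to a common library total, a scale that does not allow levels to be compared between genes, since it ignores length. Fold changes come from edgeR's quasi-likelihood test with TMM scaling, which corrects for library composition, with p-values adjusted by Benjamini-Hochberg over all 11826 genes and a threshold of 0.05. The mean TMM factor without stimulation was 1.089 early and 1.023 late, and with it 0.898 early and 1 late, so a fitted fold can differ from a ratio of CPM, most of all on early stimulation.

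The sorted cells held RNA of CD14 and CD163, the positive markers of their gate. CD14 was at 1380 to 2820 CPM and CD163 at 502 to 1340 CPM across the libraries. FCGR3, the gene of CD16, for which the gate was negative, was also counted, at 27.4 to 49.8 CPM. MARCO stayed between 0 and 1.3 CPM and MRC1 between 0.869 and 4.22 CPM, so these 2 markers of tissue macrophages were nearly absent. MSR1, a further macrophage marker, was present at 23.9 to 40.1 CPM. A list of 9 monocyte and macrophage markers summed to 10300 to 10600 CPM early and 5810 to 6420 CPM late without stimulation, and to 7630 to 8330 and 5320 to 5500 CPM with it, so it was lower late than early, as were the antiviral genes. Of the 8 of them that were tested 6 were lower and 2 higher late without stimulation, and 6 were lower with it. The 2 higher ones were MRC1 (log2 change 1.22 ± 0.45, adjusted p = 0.0312) and MSR1 (0.47 ± 0.17, adjusted p = 0.0271, edgeR). The 7 measured neutrophil markers summed to 703 to 747 CPM early and 364 to 419 CPM late in unstimulated libraries, and to 619 to 668 and 321 to 397 CPM in stimulated libraries. CSF3R, at 244 to 606 CPM, and CAMP made up most of these sums. MPO, S100A12, ELANE and LTF were at 3.48 CPM or less in every library. Of the 6 tested, 3 were lower and 1, LTF, was higher late without stimulation. The 4 measured markers of plasmacytoid dendritic cells, known as strong interferon producers, summed to 227 to 252 CPM early and 152 to 185 CPM late without stimulation, and to 192 to 268 and 152 to 160 CPM with it, with their defining gene CLEC4C at 0 to 0.511 CPM. IRF8, at 116 to 234 CPM, made up most of these sums. Of the 3 tested, IRF8 was lower and GZMB higher late without stimulation (GZMB log2 change 1.71 ± 0.28, adjusted p = 3.82e-05, edgeR). The 3 measured T cell markers summed to at most 3.26 CPM in any library, the 5 of B cells to at most 6.8, the 3 of NK cells to at most 13 and the 5 of platelets and erythroid cells, with HBA1 at 0 throughout, to at most 3.32 CPM. The part of these markers in the results below was not tested, and in bulk RNA fewer cells of a type and less RNA per cell cannot be told apart.

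The antiviral genes were lower at 19 than at 4.5 months. Without stimulation 5 of the 7, MX1, MX2, IFIT2, IFIT3 and IFIT5, fell by 2.55 to 4.5-fold, while ISG20 and RSAD2 did not pass the test. With stimulation all 7 fell, by 1.78-fold (RSAD2) to 7.03-fold (IFIT5). Among all tested genes 19.8% were called lower late without stimulation and 19.7% with it, and the median log2 fold change of the 7 was -1.55 and -2.08, against 0.02 and 0.05 over all genes. Early stimulation raised 5 of the 7 under TMM scaling, where 4.57% of all genes were called higher. Late stimulation called none of the 7 and none of the 11826 genes, and the response itself was lower late than early for MX1, MX2, IFIT5 and ISG20, where 1.23% of all genes were called lower. The 7 genes together summed to 1220 to 1300 CPM early and 455 to 541 CPM late without stimulation, and to 1630 to 1650 and 500 to 521 CPM with it.

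**Figure D1:**
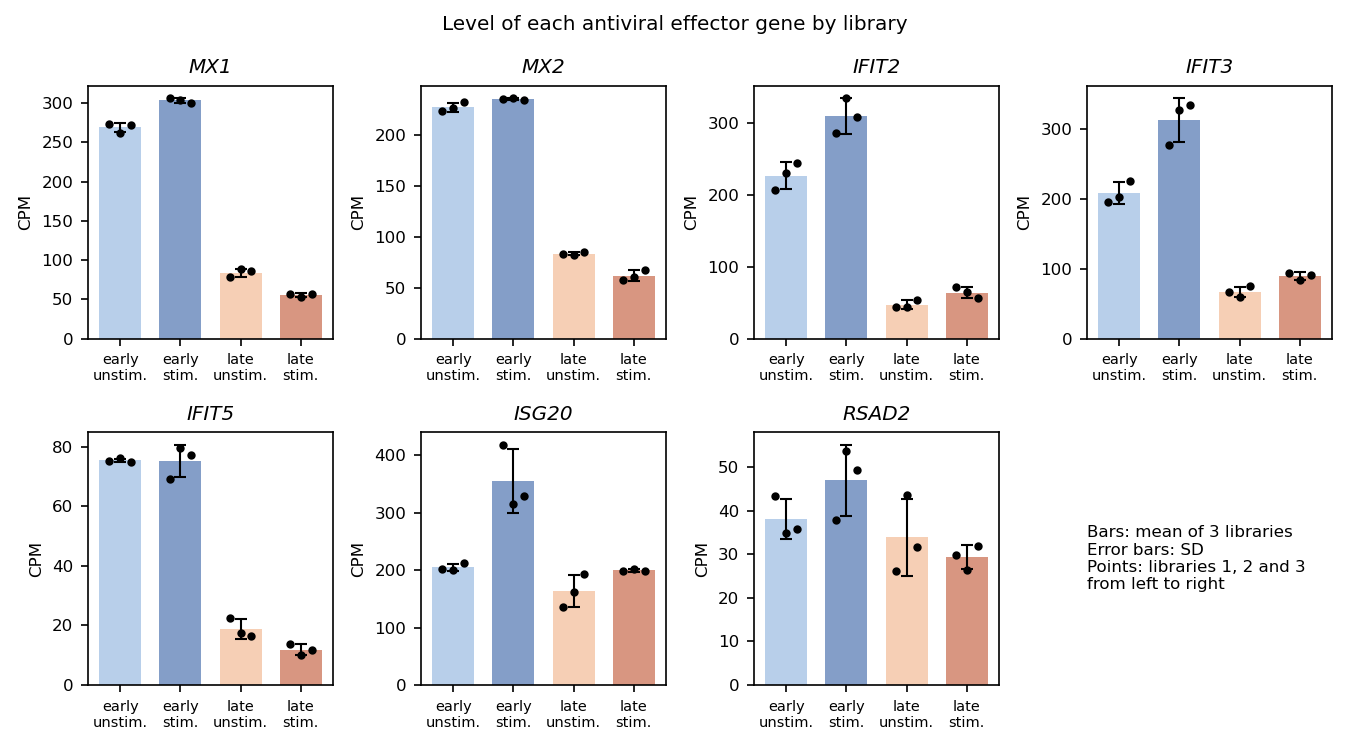
Level of each gene in CPM (vertical axis, linear from 0, own scale per panel) in the 4 groups; bars are means of 3 libraries, error bars are SD and points are single libraries. The late bars of MX1, MX2, IFIT2, IFIT3 and IFIT5 lie well below the early bars, while those of ISG20 and RSAD2 without stimulation lie close to them.

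MX1 and MX2 encode related GTPases: MX1 is known for blocking influenza and other RNA viruses in the cytoplasm, and MX2 for acting on the capsid of HIV-1 and related viruses. MX1 (ENSMMUG00000015329) spans 5221826 to 5251031 of chromosome 3 and MX2 (ENSMMUG00000044257) spans 5262967 to 5303169 beside it, by the authors' deposited table (build Mmul_8.0.1, as for all positions given here), which leaves 11935 bases between the genes. MX1 was at 272.8, 261.7 and 271.5 CPM early and 78.0, 88.0 and 85.8 CPM late without stimulation, and at 305.5, 303.6 and 299.6 CPM early and 56.2, 52.4 and 56.8 CPM late with it. These 4 sets of values did not overlap: the early stimulated libraries were highest and the late stimulated libraries lowest. MX1 fell by 1.58 ± 0.11 (SE) on the log2 scale between the times without stimulation (2.99-fold, adjusted p = 5.46e-11, edgeR) and by 2.61 ± 0.11 with it (6.09-fold, adjusted p = 3.2e-14). The second change had the smallest p of all 11826 genes, and the authors' deposited table also lists MX1 first of 3985 genes by p for that comparison, with -2.6 ± 0.13.

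MX2 was at 223.0, 225.7 and 231.9 CPM early and 82.9, 82.0 and 85.0 CPM late without stimulation, and at 235.1, 236.0 and 233.8 CPM early and 57.1, 60.2 and 67.6 CPM late with it. As for MX1, no library of one group reached the range of another, although the early groups lay within a few CPM of each other. MX2 fell by 1.35 ± 0.11 (2.55-fold, adjusted p = 1.03e-09) without and by 2.08 ± 0.11 (4.23-fold, adjusted p = 9.8e-13) with stimulation (log2 ± SE, edgeR). The MX2 libraries of a group were close, with an SD of 0.479 to 8.76% of the mean.

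IFIT2, IFIT3, IFIT1 and IFIT5 form a cluster of 95959 bases on chromosome 9. The authors' deposited table places IFIT2 (ENSMMUG00000048363, named there by its description) from 84486216 to 84487782, IFIT3 (ENSMMUG00000005001) from 84503524 to 84514315, IFIT1 (ENSMMUG00000017533) from 84546959 to 84574640 and IFIT5 (ENSMMUG00000017534) from 84578348 to 84582174. The IFIT genes are paralogs, so reads from similar stretches could be split between them by the counting, which the sources used here do not describe.

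IFIT2, whose product binds viral RNA and restrains translation, was at 206.9, 230.1 and 243.9 CPM early and 43.5, 43.7 and 54.3 CPM late without stimulation, and at 286.4, 334.9 and 308.9 CPM early and 71.2, 64.9 and 56.0 CPM late with it. Its 4 ranges did not overlap, and at both times the stimulated libraries were the higher ones. IFIT2 fell by 2.17 ± 0.13 without stimulation, the largest fitted change of the 7 genes there (4.5-fold, adjusted p = 5.16e-12, edgeR). With stimulation it fell by 2.43 ± 0.13 (5.38-fold, adjusted p = 8.71e-13).

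IFIT3, known as a partner that stabilises complexes of the other IFIT proteins, was at 196.5, 202.8 and 226.0 CPM early and 66.0, 60.1 and 74.5 CPM late without stimulation, and at 276.6, 326.5 and 334.5 CPM early and 94.0, 83.4 and 90.9 CPM late with it. The order of the groups was that of IFIT2, again without overlap. IFIT3 fell by 1.55 ± 0.12 (2.92-fold, adjusted p = 6.08e-10) without and by 1.95 ± 0.12 (3.88-fold, adjusted p = 1.18e-11) with stimulation.

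IFIT5, which binds RNA ends that carry a triphosphate, had 77 to 1032 counts per library. It was at 75.3, 76.1 and 75.0 CPM early and 22.5, 17.3 and 16.4 CPM late without stimulation, and at 69.1, 79.6 and 77.1 CPM early and 13.9, 10.1 and 11.6 CPM late with it. The early groups overlapped and their means, 75.5 ± 0.566 and 75.2 ± 5.46 CPM (SD, n = 3), differed by less than their spread, whereas every late stimulated library was below every late unstimulated one. IFIT5 fell by 1.94 ± 0.15 (3.83-fold, adjusted p = 4.66e-10) without and by 2.81 ± 0.16 (7.03-fold, adjusted p = 1.18e-12) with stimulation, the largest fitted change of the 7 genes.

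ISG20 (ENSMMUG00000007669), which spans 66627909 to 66646965 of chromosome 7 by the authors' deposited table, was at 202.7, 200 and 212.0 CPM early and 136.3, 162.2 and 193.1 CPM late without stimulation, and at 418.9, 316.2 and 330.4 CPM early and 198.7, 202.1 and 198.5 CPM late with it. Late stimulated libraries were within the range of the early unstimulated ones or just under it, and the highest value came from early stimulated library 1, the library that stands apart. Without stimulation the late libraries were all below the early ones, as in 30.4% of all tested genes, but the fitted change of -0.23 ± 0.13 did not pass (adjusted p = 0.18, 95% interval -0.50 to 0.05). It passed without early stimulated library 1 (-0.24 ± 0.09, adjusted p = 0.0165), which is in neither group of this comparison but shares the estimate of the spread. It also passed without late unstimulated library 3 (-0.37 ± 0.14, adjusted p = 0.0341), the other library that stands apart and the highest of its group for ISG20. With stimulation ISG20 fell by 0.98 ± 0.13 (1.97-fold, adjusted p = 2.8e-06).

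RSAD2 (ENSMMUG00000015969), which spans 6802500 to 6876694 of chromosome 13 by the same source, was at 43.4, 35 and 35.9 CPM early and 26.3, 43.7 and 31.8 CPM late without stimulation, and at 37.8, 53.7 and 49.5 CPM early and 29.8, 26.4 and 31.9 CPM late with it. Only the stimulated groups were apart in time, and the late unstimulated libraries alone spanned the whole range of the early unstimulated ones. RSAD2 changed by -0.05 ± 0.17 without stimulation (adjusted p = 0.832, 95% interval -0.40 to 0.30), and it fell by 0.84 ± 0.17 with it (1.78-fold, adjusted p = 0.000375, edgeR). The authors' deposited tables, which list called genes, hold all 7 genes for the stimulated comparison and 5 of them, not ISG20 or RSAD2, for the unstimulated one.

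CMPK2, a mitochondrial nucleotide kinase gene (ENSMMUG00000015968), is the immediate neighbour of RSAD2, and the gene bodies share 139 bases in which unstranded reads cannot be told apart. CMPK2 was at 82.9, 85.1 and 80.3 CPM early and 26.3, 21.8 and 22.4 CPM late without stimulation, and at 85.0, 91.1 and 93.0 CPM early and 20.2, 23.3 and 20.0 CPM late with it. Its late levels were thus far below its early ones at both conditions, unlike those of RSAD2. CMPK2 fell by 1.73 ± 0.13 (adjusted p = 3.25e-10) without and by 2.24 ± 0.13 (adjusted p = 3.85e-12) with stimulation. IFIT1, the fourth gene of the IFIT cluster, had 21.9 to 25 CPM early and 3.24 to 6.39 CPM late without stimulation and fell by 2.22 ± 0.24 (adjusted p = 6.82e-08). With stimulation it was at 14.8 to 22.2 CPM early and 4.13 to 4.31 CPM late and fell by 2.30 ± 0.23 (adjusted p = 4.44e-08, edgeR).

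**Figure D2:**
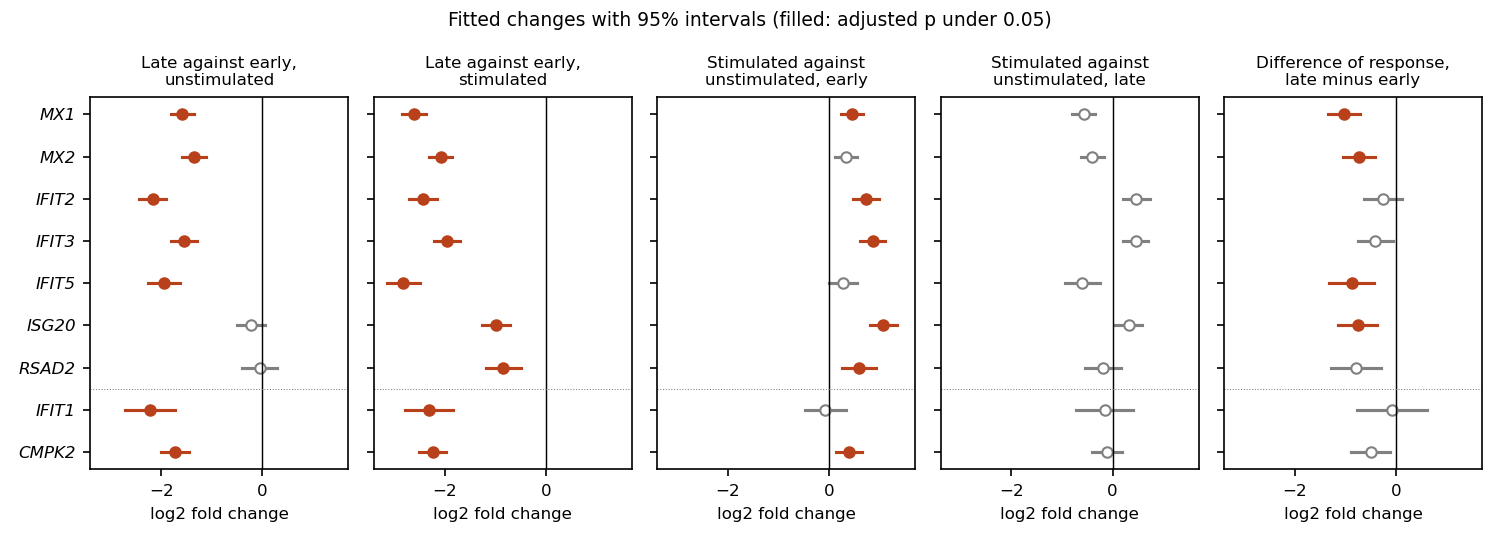
Fitted log2 fold change (horizontal axis) of the 7 genes and, under the dotted line, of IFIT1 and CMPK2 in the 5 comparisons; bars are 95% intervals and filled points have an adjusted p under 0.05. All 7 genes are filled and left of 0 for late against early with stimulation, and none is filled for stimulation at the late time.

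The unstimulated and stimulated comparisons share no library but set the same times, each sorted on its own, against each other. Neither is thus a replication of the other. In both, no late library of MX1, MX2, IFIT2, IFIT3, IFIT5 or ISG20 reached an early one. Without stimulation these were 6 of the 7 genes, beside 30.4% of all tested genes, and RSAD2 overlapped. With stimulation the late libraries were below the early ones for 7 of 7 genes, as for 18.5% of all tested genes. The late-early calls of MX1, MX2, IFIT2, IFIT3 and IFIT5 held under every alternative tried, leaving out each library in turn and dropping the scaling factors included. With DESeq2 in place of edgeR the same 5 and 7 genes were called, where 12% and 12.4% of all genes were called lower.

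**Figure D3:**
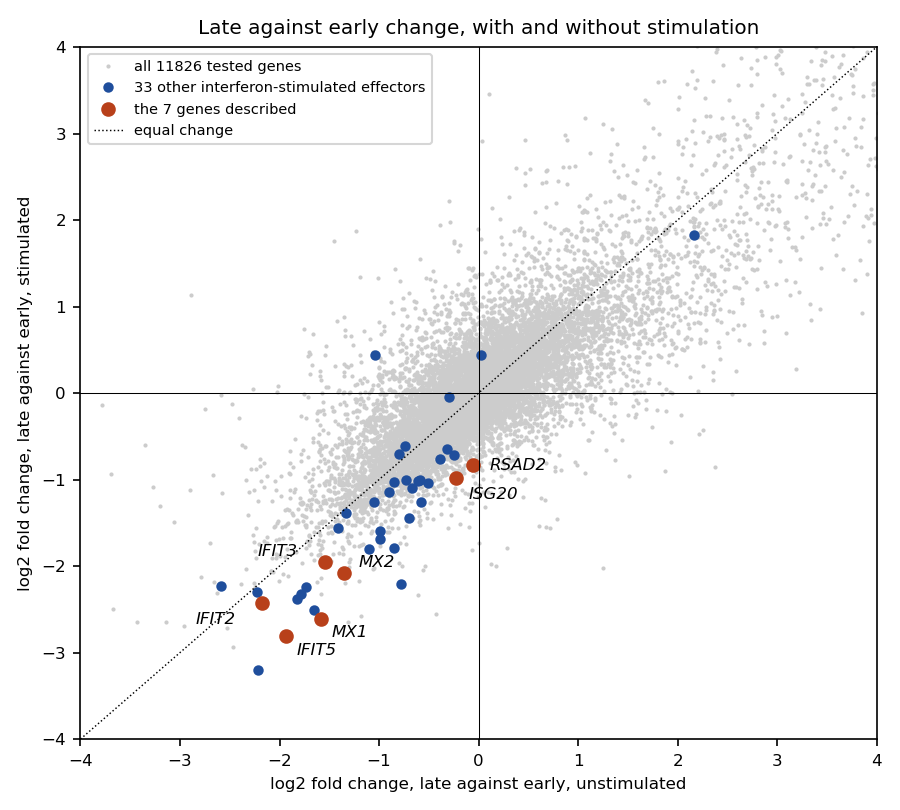
Each point is a gene, with the log2 fold change of late against early without stimulation on the horizontal and with stimulation on the vertical axis; the 7 genes are red, 33 other interferon-stimulated effectors blue and all tested genes grey, of which 353 lie outside the axes. The 7 genes lie below the dotted line of equal change, and ISG20 and RSAD2 lie near 0 on the horizontal axis but below -0.8 on the vertical one.

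Early stimulation raised ISG20, IFIT3, IFIT2, RSAD2 and MX1 in the fit with TMM scaling. ISG20 rose by 1.07 ± 0.13 (2.1-fold, adjusted p = 3.2e-06), IFIT3 by 0.86 ± 0.12 (adjusted p = 1.82e-05) and IFIT2 by 0.73 ± 0.12 (adjusted p = 0.000274), all on the log2 scale in edgeR's quasi-likelihood test. The rises of RSAD2, 0.59 ± 0.17 (adjusted p = 0.0254), and MX1, 0.45 ± 0.11 (adjusted p = 0.00782), were smaller. The RSAD2 call was lost in 6 of 20 alternatives and the MX1 call in 3, while those of ISG20, IFIT3 and IFIT2 held in all 20. MX2 at 0.33 ± 0.11 (adjusted p = 0.0664) and IFIT5 at 0.28 ± 0.14 (adjusted p = 0.246) did not pass. By CPM, which carries no scaling factor, the stimulated libraries were all above the unstimulated ones for MX1, MX2, IFIT2, IFIT3 and ISG20, as for 4.44% of all tested genes.

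The size of these changes rests on the scaling. Without scaling factors, an alternative added after the data were seen, the median log2 change of all genes on early stimulation moved by -0.27, and the share of called genes that were higher went from 63.3% of 855 to 11.6% of 2413. Then 3 of the 7 genes stayed higher, where 2.36% of all genes were called higher: ISG20 by 0.79 (adjusted p = 0.000184), IFIT3 by 0.59 (adjusted p = 0.00136) and IFIT2 by 0.45 (adjusted p = 0.0119). MX1 was at 0.17 (adjusted p = 0.248), RSAD2 at 0.32 (adjusted p = 0.18), MX2 at 0.05 (adjusted p = 0.776) and IFIT5 at -2e-04 (adjusted p = 1). Without early stimulated library 1 the count was 6 of 7 under TMM scaling, where 7.62% of all 12565 genes then tested were called higher. Without early unstimulated library 2 it was 3, where 2.7% of 12456 were.

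At 19 months stimulation gave no call. The smallest adjusted p of all genes was 0.0691 and was shared by MX1, at -0.57 ± 0.11 (edgeR). At an unadjusted p under 0.05 there were 527 genes, 4.46% of those tested, and 6 of the 7 members: MX1, MX2 (-0.40 ± 0.11) and IFIT5 (-0.60 ± 0.17) were lower and IFIT2 (0.47 ± 0.13), IFIT3 (0.45 ± 0.12) and ISG20 (0.32 ± 0.13) higher in stimulated libraries. By CPM the stimulated libraries were all below the unstimulated ones for the first 3, as for 7.5% of all tested genes, and all above for the other 3, as for 4.23%. RSAD2 was at -0.19 ± 0.17 (adjusted p = 0.998). DESeq2 called 15 genes, 0.173% of the 8691 with an adjusted p, among them MX1 (adjusted p = 1.9e-06) and MX2 (adjusted p = 0.0182), both lower. Without early stimulated library 1, which is in neither group here, edgeR called 4 of the 7, MX1 and MX2 lower and IFIT2 and IFIT3 higher, among 29 genes called in all, 0.231% of the 12565 tested.

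The response to stimulation was lower late than early for 4 of the 7 genes by the interaction test in edgeR. The difference was -1.02 ± 0.15 for MX1 (adjusted p = 0.000196), -0.73 ± 0.16 for MX2 (adjusted p = 0.0118), -0.88 ± 0.22 for IFIT5 (adjusted p = 0.0369) and -0.75 ± 0.19 for ISG20 (adjusted p = 0.0361), on the log2 scale. Over all genes 167 were called, 145 of them lower. MX1 had CPM above the unstimulated range early and below it late, and MX2 did the same. For ISG20 the stimulated libraries were above at both times, by a smaller step late. RSAD2 at -0.78 ± 0.24 (adjusted p = 0.121), IFIT3 at -0.41 ± 0.17 (adjusted p = 0.351) and IFIT2 at -0.26 ± 0.18 (adjusted p = 0.652) did not pass.

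The call for MX1 held in each of the 19 alternatives, with adjusted p from 1.01e-14 to 0.00691. Those for MX2, IFIT5 and ISG20 did not: without scaling factors only MX1 was called, where 0.6% of all genes were called lower, MX2 being at -0.48 (adjusted p = 0.111), IFIT5 at -0.63 (adjusted p = 0.134) and ISG20 at -0.51 (adjusted p = 0.15). That setting moved the median of all genes by 0.24 and the share of called genes that were higher from 13.2% to 61.4%. The count was 1 without early unstimulated library 1 or 2 or late stimulated library 2, it was 2 without early unstimulated library 3, late unstimulated library 2 or late stimulated library 1 or 3, and 6 without early stimulated library 1. Called lower among all genes were 0.698 to 0.79% in the fits with a count of 1, 0.745 to 0.835% in those with a count of 2 and 3.38% in the fit with 6. ISG20 was also lost without late unstimulated library 3 (-0.62 ± 0.18, adjusted p = 0.105).

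The ratio of a pair of genes within a library does not depend on the scaling of that library, so ratios were compared as well, for the 7 genes with IFIT1 and CMPK2. An exact two-sided permutation test, which permutes condition within each time or time within each condition, was used on 36 pairs and both contrasts, added after the values had been seen, with adjustment over all 72 tests. Its smallest possible p was 0.005, which became 0.0112 after adjustment.

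On stimulation, 11 of the 21 pairs among the 7 genes changed their ratio. Of all 69921225 pairs of the 11826 tested genes, 8.11% had an exact p of 0.025 or less, the largest that passed among the 72 tests. The 9 pairs that join MX1, MX2 or IFIT5 with IFIT2, IFIT3 or ISG20 all passed, and none of the 6 pairs within either trio did. These trios are the genes that were lower and higher on late stimulation in the same libraries. The split thus restates that pattern in part and is not separate evidence for it. The log2 ratio of MX1 to IFIT3 fell by 0.72, that of MX2 to IFIT2 fell by 0.64 and that of IFIT5 to ISG20 fell by 0.87, stimulated minus unstimulated (exact p = 0.005 each, adjusted p = 0.0112). The ratio of MX1 to MX2 changed by -0.02 (exact p = 0.74) and that of IFIT2 to IFIT3 by -0.06 (exact p = 0.405). The MX genes and IFIT5 were thus lower relative to IFIT2, IFIT3 and ISG20 in stimulated cells. MX1 to IFIT3 had a mean log2 ratio of 0.37 early and 0.33 late without stimulation, and of -0.04 early and -0.69 late with it. RSAD2 fell relative to IFIT3 and ISG20, by 0.45 and 0.49 on the log2 scale as the ratios IFIT3 to RSAD2 (exact p = 0.01, adjusted p = 0.0206) and ISG20 to RSAD2 (exact p = 0.005, adjusted p = 0.0112) rose.

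Between the times, 15 of the 21 pairs changed their ratio, as did 48.9% of the pairs of all tested genes by the same limit. A changed ratio between the times was thus common among all genes. All 10 pairs of ISG20 or RSAD2 with one of the other 5 genes passed, and ISG20 to RSAD2 did not (-0.15, exact p = 0.44). The log2 ratio of MX1 to ISG20 fell by 1.49 and that of MX1 to RSAD2 fell by 1.64, late minus early (exact p = 0.005 each). RSAD2 against its neighbour CMPK2 rose by 1.52 (exact p = 0.005, adjusted p = 0.0112), from -1.12 to 0.50 without and from -0.94 to 0.47 with stimulation. Of the 10 pairs among the other 5 genes, 5 passed, with smaller shifts. MX2 to IFIT5 rose by 0.64, IFIT2 to IFIT3 fell by 0.55 and MX1 to MX2 fell by 0.38 (exact p = 0.005, adjusted p = 0.0112 each), and IFIT3 to IFIT5 rose by 0.61 and MX2 to IFIT2 rose by 0.58 (exact p = 0.01, adjusted p = 0.0206 each).

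**Figure D4:**
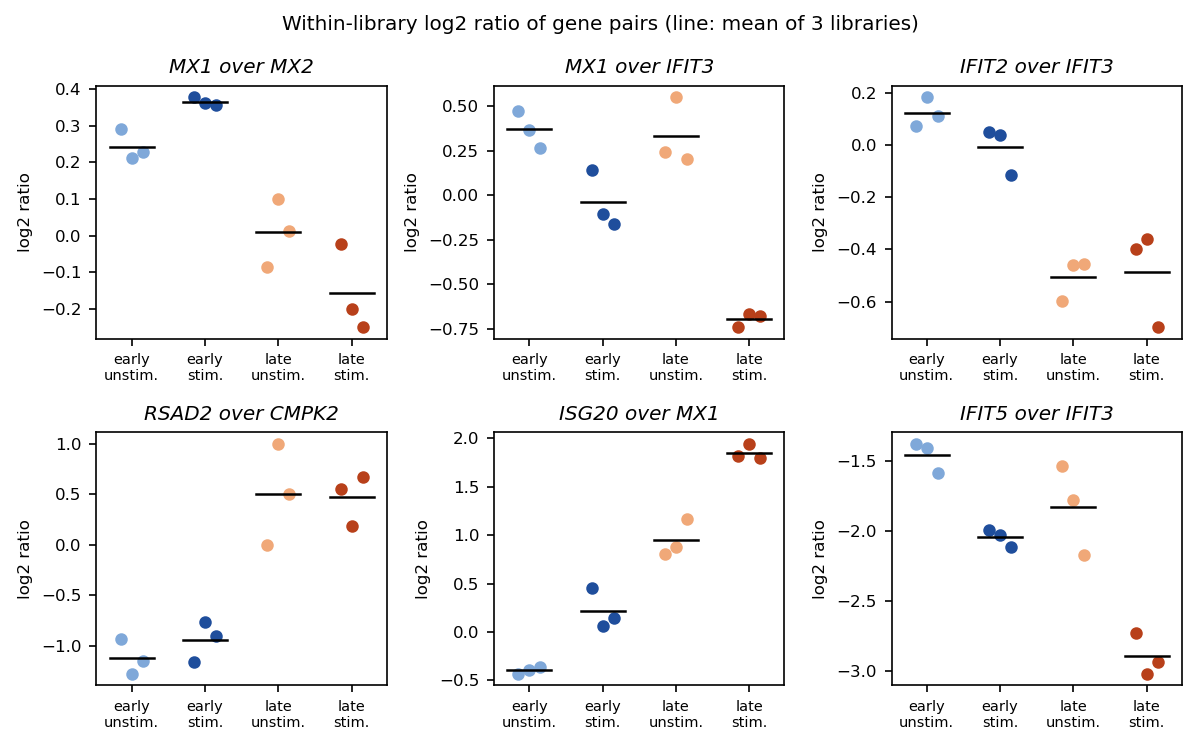
Log2 ratio of 6 pairs of genes within each library (vertical axis, own scale per panel) in the 4 groups; points are libraries and lines are means of 3. MX1 over IFIT3 and IFIT5 over IFIT3 are lower with stimulation at both times, and RSAD2 over CMPK2 is below 0 in each early library and at or above 0 in each late one.

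Profiles were also compared over all 12 libraries by the root mean square (RMS) difference of log2 CPM with TMM scaling, each gene centred on its own mean. This distance is a description, and the libraries of a group share their time and condition. MX1 and MX2 were 0.21 apart, MX1 and IFIT5 0.22, IFIT2 and IFIT3 0.29 and ISG20 and RSAD2 0.37, while IFIT5 was 1.01 from both ISG20 and RSAD2. MX2 was closest to the mean profile of the 7 genes, at 0.18, and RSAD2 farthest, at 0.61. RSAD2 was 0.80 from CMPK2, which lay 0.20 from MX2.

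Among 6698 other genes with a symbol and a mean CPM of at least 5, the profiles nearest to the mean of the 7 were APOBEC3A (0.12), RNF213 (0.16), XAF1 (0.19), PML (0.21), CMPK2 (0.23), UNC93B1 (0.24), LILRA6 (0.24) and CXCR1 (0.24), against a median of 0.84. APOBEC3A, a cytidine deaminase, had mean levels of 1010 CPM early and 384 CPM late without stimulation, and of 1400 and 401 CPM with it. APOBEC3A and LILRA6 belong to families of close paralogs, so their counts are uncertain.

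**Figure D5:**
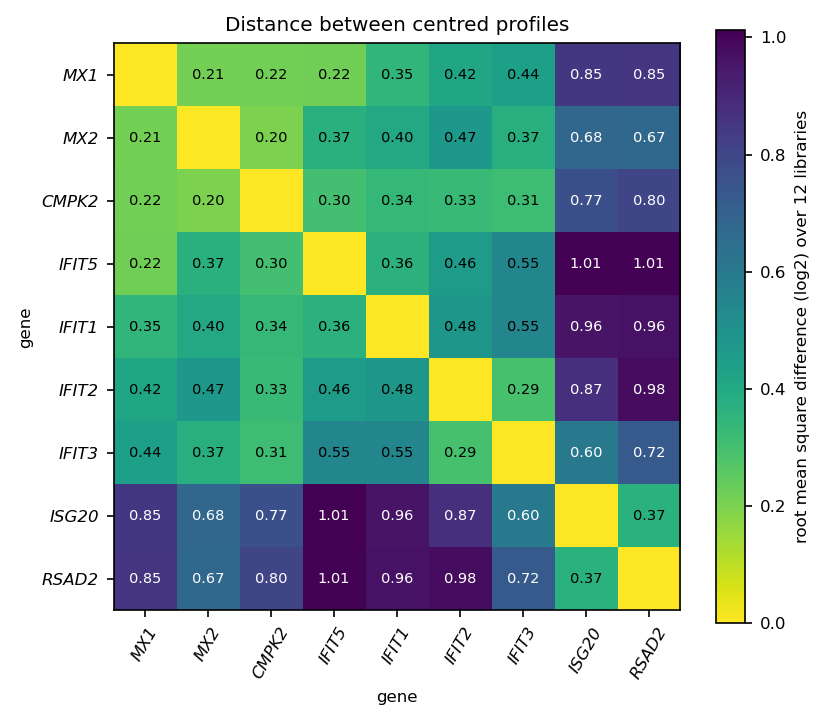
Distance between the centred profiles of each pair of genes as the RMS difference of log2 CPM over 12 libraries (colour and printed value; both axes list genes). MX1, MX2, CMPK2 and IFIT5 form a block of small distances from 0.20 to 0.37, and ISG20 and RSAD2 lie 0.60 or more from each of the other genes.

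The other genes of the pathway were read from lists chosen with earlier results of these data known. Of 40 other antiviral interferon-stimulated effectors 33 were tested. Without stimulation 27 were lower and 1 higher late (median log2 change -0.85), and with stimulation 29 were lower and 1 higher (median -1.25). The smallest p at both conditions belonged to OAS2, which makes the second messenger of RNase L and fell by 2.22 ± 0.15 (adjusted p = 2.21e-11) and 3.20 ± 0.15 (adjusted p = 8.8e-14, edgeR), followed by CMPK2. On early stimulation 8 of the 33 were higher and none lower, led by OASL (1.19 ± 0.14, adjusted p = 1.57e-06), DHX58 (1.07 ± 0.13, adjusted p = 1.62e-06) and the RNA sensor RIGI (0.81 ± 0.13, adjusted p = 0.000146). Without scaling factors 4 of the 33 were. None of the 33 passed on late stimulation, and 2 had a lower response late, OAS2 (-0.98 ± 0.20, adjusted p = 0.00888) and DHX58 (-0.74 ± 0.18, adjusted p = 0.0325), neither of which was called without scaling factors.

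Of 14 interferon genes listed as ligands, 4 had a usable name in the count table and 2, IFNB1 and IFNE, were tested. Those without such a name, all listed IFNA genes included, could not be measured here. IFNB1 was at 0.305 to 0.458 CPM early and 0.408 to 1.54 CPM late without stimulation, and at 1.55 to 1.77 CPM early and 0.387 to 0.523 CPM late with it, with 2 to 23 counts per library. It rose by 2.41 ± 0.63 on early stimulation (adjusted p = 0.0164) and was lower late than early in stimulated cells by a log2 change of -2.02 ± 0.62 (adjusted p = 0.0119, edgeR). Its difference of response, -3.27 ± 0.95, did not pass (adjusted p = 0.0966). IFNE, also at a low level, was at 0.48 to 1.42 CPM early and 2.3 to 3.67 CPM late without stimulation. It rose there by 1.94 ± 0.50 (adjusted p = 0.00304) and did not pass with stimulation (0.45 ± 0.46, adjusted p = 0.455, edgeR).

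Of 12 receptor and signalling genes 7 were lower late without stimulation, and with stimulation 7 were lower and 1 higher. STAT2 fell by 0.84 ± 0.16 (adjusted p = 0.000149) and 1.39 ± 0.16 (adjusted p = 2.15e-07, edgeR). IRF9, a DNA-binding partner of STAT2, was the one gene of the 12 whose response was lower late (-0.68 ± 0.17, adjusted p = 0.0379), a call that was lost without scaling factors. On early stimulation IRF9 was called higher (0.42 ± 0.12, adjusted p = 0.0292) and IRF3 lower (-0.56 ± 0.17, adjusted p = 0.0357). Without scaling factors none of the 12 was called higher there and 4 were called lower.

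Of 6 tested brakes on interferon signalling 4 were lower and 1 higher late without stimulation, and 4 were lower with it. USP18, which holds back IFNAR signalling, fell by 2.58 ± 0.42 with stimulation (adjusted p = 3.42e-05), and SOCS1, an inhibitor of JAK kinases, fell by 1.01 ± 0.16 without it (adjusted p = 1.86e-05, edgeR). Of 6 relatives of the MX and ISG20 proteins outside the interferon response, the dynamin genes DNM1, DNM1L, DNM2 and DNM3, OPA1 and ISG20L2, 1 was lower and 1 higher late without stimulation and 1 was lower and 2 higher with it. Of all tested genes 20.9% were called higher and 19.8% lower without stimulation, and 19.1% and 19.7% with it. DNM2, a dynamin of endocytosis, fell by 0.57 ± 0.12 (adjusted p = 0.000428) and 0.85 ± 0.12 (adjusted p = 5.48e-06). DNM3, at a low level, rose by 2.20 ± 0.73 (adjusted p = 0.0172) and 1.93 ± 0.75 (adjusted p = 0.0449). DNM1L rose by 0.38 ± 0.15 with stimulation (adjusted p = 0.0446, edgeR).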

How the data were processed

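RNA was extracted from sorted cells, copied into cDNA with a SMART-Seq V4 kit and sequenced as Nextera XT libraries, per the labels' protocols. The authors deposited a raw count per gene and library. The submitters' processing notes name bcl2fastq and build Mmul_8.0.1, but no aligner or counter (not given in the sources used here). The authors also deposited tables of their own comparison of late with early libraries, which give a mean normalized signal, a log2 fold change with its standard error, a test score and a deposited p-value with its adjusted value, for called genes.

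Counts were tested with edgeR 4.0.16 in R 4.3.3 (robust quasi-likelihood F test, TMM scaling, filterByExpr by group, a coefficient per group, all 12 libraries, Benjamini-Hochberg over 11826 genes). Standard errors were computed as |log2 fold change| divided by √F. DESeq2 1.42.0, other scaling factors, other filters, only the groups compared, a replicate block and leaving out each library were alternatives. The 7 genes and all lists were chosen with earlier results of these data known. Named were the 7 genes, IFIT1 and CMPK2, some of the 3 genes with the smallest p per list and comparison (1 gene is not reported here), and the 8 nearest profiles (prior count of 2, mean CPM of at least 5). Only 15686 of 32386 genes had a usable symbol, and IFIT1B was not analysed here. On simulated data with 200 changed genes of 11826, 4-fold changes were recovered at 97 and 99% for late against early without and with stimulation, at 97 and 96% for early and late stimulation and at 84% for the interaction, and 2-fold changes at 71, 72, 70, 70 and 27%. The simulation gave every gene the same spread, changed no other gene and drew the changed genes above a low CPM floor. Real genes differ in spread and many more were called late against early, so these rates need not hold for these data. Reads carry no molecular identifiers. Gene order was taken from the RefSeq table of assembly T2T-MMU8v2.0.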

Additional observations from a re-analysis of the deposited data

Results flagged for a closer look

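The stimulation responses of 4 genes differed between the times by the interaction test in edgeR, late minus early on the log2 scale. The difference was -1.02 for MX1, -0.73 for MX2, -0.88 for IFIT5 and -0.75 for ISG20. By this test 1.23% of all tested genes were called lower. For MX1 and MX2 the stimulated libraries were all above the unstimulated ones early and all below them late, in CPM. For ISG20 they were all above at both times, and for IFIT5 they overlapped early and were all below late. Among all tested genes the stimulated libraries were all above in 4.44% early and 4.23% late, and all below in 7.5% late. Only the MX1 call held in every alternative tried.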

How the results depend on the processing

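Of the values computed for single genes under alternatives, 640 kept their direction and side of the threshold, 35 lost the call, 13 gained one and 5 changed sign. The changes of sign were RSAD2 late against early without stimulation, at 0.0724 with upper-quartile factors and from -0.29 to 0.0661 with one library left out, RSAD2 on late stimulation, from -0.32 to 0.0314 with one library left out, and IFIT5 on early stimulation, at -2e-04 without scaling factors. The late-early counts were 5 to 6 of 7 without stimulation and 7 with it in every alternative. Called lower among all genes in these fits were 9.65 to 23.4% without stimulation and 9.32 to 19.8% with it. On early stimulation the count was 3 without scaling factors, 6 with DESeq2 and 4 with only the groups compared. It was 3 to 6 with one library left out. Called higher among all genes were 2.36%, 7.1%, 3.12% and 2.67 to 7.62% in these fits, in the same order. On late stimulation the count was 2 with DESeq2, 1 with only the groups compared and 0 to 4 with one library left out. Called in either direction among all genes were 0.173%, 0.0882% and 0 to 0.231%. For the interaction the count was 2 with the replicate block, 1 without scaling factors and 1 to 6 with one library left out. The shares of all genes called lower there were 0.846%, 0.6% and 0.698 to 3.38%. The block changed no other count of members. Same-numbered libraries correlated at -0.0855 to 0.0968 in their deviations from the group means and did not all correlate best with their own number, so the numbers were not taken as pairs. The cause of these changes was not tested. Pairs with a changed ratio numbered 15 to 16 between the times and 10 to 13 on stimulation with one library left out. Without scaling factors the share of called genes that were higher late was 43.1% of 4863 against 51.3% of 4813 without stimulation, and 65.2% of 4780 against 49.3% of 4589 with it. It was 63.3% and 61% with upper-quartile factors and 64.5% and 58.5% with DESeq2. The number of called genes was 2413 against 855 on early stimulation without scaling factors, and 312 against 167 for the interaction with DESeq2. With 3 libraries a group and IFIT5 at 77 to 127 counts per late library, small differences of response can be missed.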

Other observations

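The genes beside the members in RefSeq gene order were looked up as well. Of 24 flanking genes 11 were tested, of which 5 were higher and 1 lower late without stimulation (median log2 change 0.83), and 1 was higher and 1 lower with it (median 0.06). Among all tested genes 20.9% were called higher and 19.8% lower without stimulation, and 19.1% and 19.7% with it. TMPRSS2, a membrane protease gene that flanks the MX pair, fell by 1.30 without (adjusted p = 0.0027) and by 2.01 with stimulation (adjusted p = 2.92e-05, edgeR). RNF144A, a ubiquitin ligase gene beside RSAD2, rose by 2.89 (adjusted p = 3.76e-13) and 2.13 (adjusted p = 3.49e-11) on the log2 scale.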
